A study of Mus musculus with 2 samples.

Results

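A set of 10 G protein-coupled receptor genes was compared between regulatory T cells (Treg cells) of 2 genotypes. Most of the receptors guide T cell migration or sense lipids, protons and other metabolites. The 10 genes are S1pr1, S1pr4, Gpr15, Gpr18, Gpr34, Gpr55, Gpr65, Gpr83, Gpr183 and Ptger4, chosen by gene name. Each was found once among the 55246 loci of the deposited table, so 10 of 55246 are described. The RNA came from Treg cells of the colon lamina propria, the tissue layer beneath the gut epithelium, of female mice. One group is labelled WT and the other Exon2KO, a Foxp3 allele without exon 2, and each group has 1 library. The labels used here give no strain, age, sorting gate or number of mice per library, and all cells of both groups are labelled as Tregs from that tissue.

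G protein-coupled receptors sit in the cell membrane, bind a ligand outside the cell and act through heterotrimeric G proteins on cyclic AMP (cAMP), calcium or the cytoskeleton. In T cells, receptors that couple to inhibitory G proteins mostly steer migration, while receptors that raise cAMP mostly dampen activation. Colonic Treg cells use such receptors to enter the large intestine, to stay there or leave, and to read lipids and acidity in the mucosa.

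Gene-assigned reads numbered 16281133 in WT and 15412425 in Exon2KO, and all 10 receptor genes had enough reads to be tested in both. At these depths a gene without any read could still make up 1.84e-05% of WT and 1.95e-05% of Exon2KO, the share of 3 reads. Levels are CPM (reads scaled to a common library size, which was adjusted by the TMM method), and levels of different genes are compared only as CPM per kilobase of gene length. Ratios are log2 of Exon2KO over WT, with 95% intervals that cover counting error only. A gene was called when it was tested with at least 10 reads, differed at least 2-fold and had an adjusted p-value below 0.05 in an exact binomial test of the reads. With 1 library per group this compares the 2 libraries and not the genotypes, since the spread between mice of a genotype is unknown. In bulk RNA, fewer cells of a type and less RNA per cell cannot be told apart. Foxp3 had 6991 reads in WT and 20946 in Exon2KO, and a count over the whole gene does not check a deletion of 1 exon.

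Of the 10 receptor genes, 3 were called lower in the Exon2KO library (Gpr55, Gpr83 and S1pr1) and 1 was called higher (Gpr34). Over the 17363 genes tested, 6.81% were called lower and 7.32% higher. The 3 lower genes encode a lysophospholipid receptor, a receptor typical of Treg cells and the tissue exit receptor for sphingosine-1-phosphate. The remaining 6 were below 2-fold, and for 5 of these the ratio was below 0. The median log2 ratio of the 10 genes was -0.75, against 0.0043 over all genes tested. With TMM scaling the intervals lay below 0 for 8 of the 10 genes, above 0 for 1 and across 0 for 1 (Ptger4), while over all tested genes it lay below 0 for 24.5%, above 0 for 22.8% and across 0 for 52.6%. With scaling on T cell marker reads they lay below 0 for 6, above 0 for 3 (Gpr34, Gpr65 and Ptger4) and across 0 for 1 (Gpr18), against 10.02%, 49.8% and 40.2% of all tested genes. A counting interval excludes 0 more easily at more reads, so these shares of all genes are not a background of like depth. Each of the 10 genes had at least 108 reads in each library. Of the 17363 tested genes, 12730 had at least 50 over both. Together the 10 genes had 979 CPM in the WT library and 609 CPM in the Exon2KO library, a 1.61-fold lower sum in Exon2KO. Without Gpr183, the gene with most reads, the sums were 588 and 408 CPM.

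**Figure D1:**
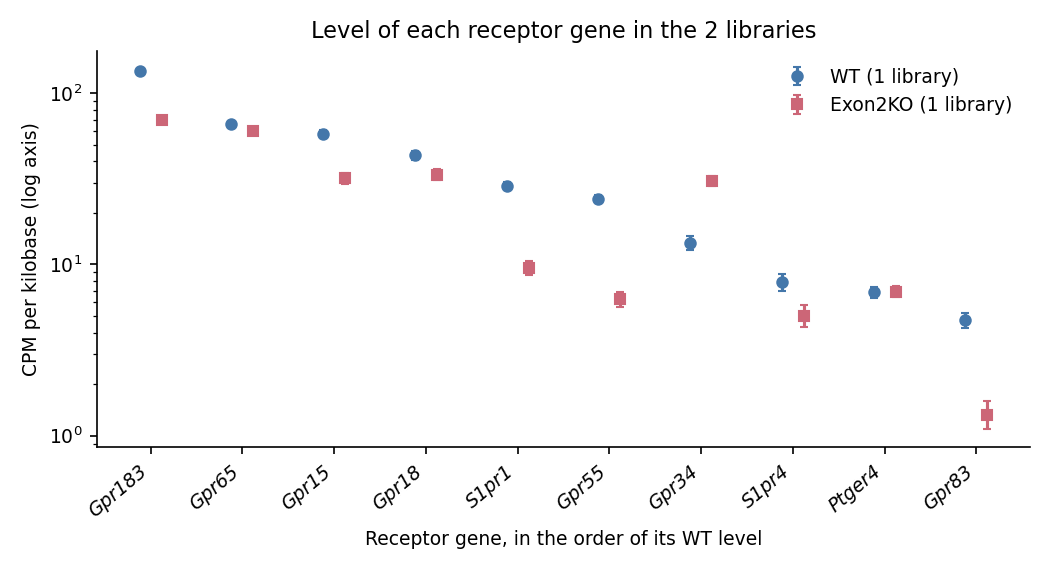
Level of each receptor gene in CPM per kilobase (vertical log axis) in the WT library (circles) and the Exon2KO library (squares), with genes ordered by WT level and bars giving exact 95% Poisson intervals. Gpr34 is the gene whose Exon2KO level stands well above its WT level, and the widest gaps in the other direction are those of Gpr55, Gpr83 and S1pr1.

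The receptors for sphingosine-1-phosphate (S1P), a lipid that is plentiful in blood and lymph and draws lymphocytes out of tissues, gave 1 call: S1pr1 was called lower in Exon2KO and S1pr4 was not. S1pr1 (ENSMUSG00000045092, chromosome 3, 115710433 to 115715072, minus strand, mouse build mm10) is the receptor lymphocytes need to leave lymphoid organs. It had 1364 reads in WT and 462 in Exon2KO, or 28.5 and 9.49 CPM per kilobase. The Exon2KO level was the lower one by 2.997-fold, a log2 ratio of -1.58 (95% interval -1.74 to -1.43), and the gene was called. S1pr4 (ENSMUSG00000044199, chromosome 10, 81497747 to 81500132, minus strand), a second S1P receptor found mainly on blood cells, had 294 and 191 reads, or 7.85 and 5.01 CPM per kilobase. Its log2 ratio was -0.64 (-0.92 to -0.38), short of 2-fold. S1pr1 thus stood 3.63-fold above S1pr4 in the WT library and 1.89-fold above it in Exon2KO.

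Gpr15 and Gpr183 encode receptors that position T cells in the gut, and both lay just under the 2-fold threshold. Gpr15 (ENSMUSG00000047293, chromosome 16, 58717433 to 58719070, minus strand) encodes a homing receptor that brings T cells to the large intestine. It had 1486 reads in WT and 831 in Exon2KO, or 57.8 and 31.7 CPM per kilobase, with a log2 ratio of -0.86 (-0.99 to -0.74). Gpr183 (ENSMUSG00000051212, chromosome 14, 121952551 to 121965195, minus strand) encodes a receptor for oxysterols that guides lymphocytes and dendritic cells within tissues. It had the highest level of the 10 genes in both libraries, with 6127 and 3225 reads or 135 and 69.9 CPM per kilobase. Its log2 ratio was -0.95 (-1.01 to -0.89), so the interval reaches the 2-fold line. Gpr183 took 39.9% of the reads of the 10 genes in WT (39.1 to 40.7, Wilson interval at 95%), whereas the Exon2KO share was 33.1% (32.2 to 34.1).

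The receptors tied to lysophospholipids and related lipids went both ways. Gpr55 (ENSMUSG00000049608, chromosome 1, 85938318 to 85961007, minus strand), a receptor for lysophosphatidylinositol, had 1403 reads in WT and 372 in Exon2KO, or 24.0 and 6.25 CPM per kilobase. This was the lowest ratio of the 10, at -1.94 (-2.11 to -1.78), a 3.82-fold lower level that was called. Gpr34 (ENSMUSG00000040229, chromosome X, 13632089 to 13640858, plus strand), a receptor for lysophosphatidylserine, had 437 and 1025 reads, or 13.3 and 30.7 CPM per kilobase. It was the 1 gene called higher, at 1.20 (1.04 to 1.37), or 2.30-fold. Its share of the reads of the 10 genes went from 2.84% (2.59 to 3.12) to 10.5% (9.93 to 11.1). S1pr1 stood 2.14-fold above Gpr34 in WT, and in Exon2KO Gpr34 stood 3.23-fold above S1pr1. Gpr18 (ENSMUSG00000050350, chromosome 14, 121911253 to 121915781, minus strand), a lymphocyte receptor for lipids, had 1022 and 800 reads, or 43.5 and 33.4 CPM per kilobase, with a ratio of -0.38 (-0.51 to -0.24).

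The 2 receptors that signal through stimulatory G proteins and cAMP had the ratios nearest 0 with TMM scaling. This order depended on scaling, since with T cell marker reads Gpr18 was nearest 0 at -0.03, with Gpr65 at 0.22, S1pr4 at -0.30 and Ptger4 at 0.36. Gpr65 (ENSMUSG00000021886, chromosome 12, 98268635 to 98276644, plus strand), a sensor of extracellular protons, had 2136 reads in WT and 1990 in Exon2KO, or 65.8 and 60.2 CPM per kilobase. Its log2 ratio was -0.13 (-0.22 to -0.04). Ptger4 (ENSMUSG00000039942), the EP4 receptor for the lipid mediator prostaglandin E2, lies on chromosome 15, 5206661 to 5244187, on the minus strand. It had 716 and 736 reads, or 6.86 and 6.93 CPM per kilobase, and its ratio of 0.01 (-0.14 to 0.16) showed no difference detectable at this depth. Both limits of the Ptger4 interval lie inside 2-fold.

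Gpr83 (ENSMUSG00000031932, chromosome 9, 14860210 to 14870789, plus strand) encodes a receptor found at high levels in Treg cells relative to other T cells. It had the lowest level of the 10 genes in both libraries, with 378 reads in WT and 108 in Exon2KO, or 4.73 and 1.33 CPM per kilobase. The log2 ratio was -1.81 (-2.16 to -1.52), a 3.52-fold lower level that was called. Its interval is the widest of the 10, and its 108 Exon2KO reads are the fewest of any of these genes in a library.

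**Figure D2:**
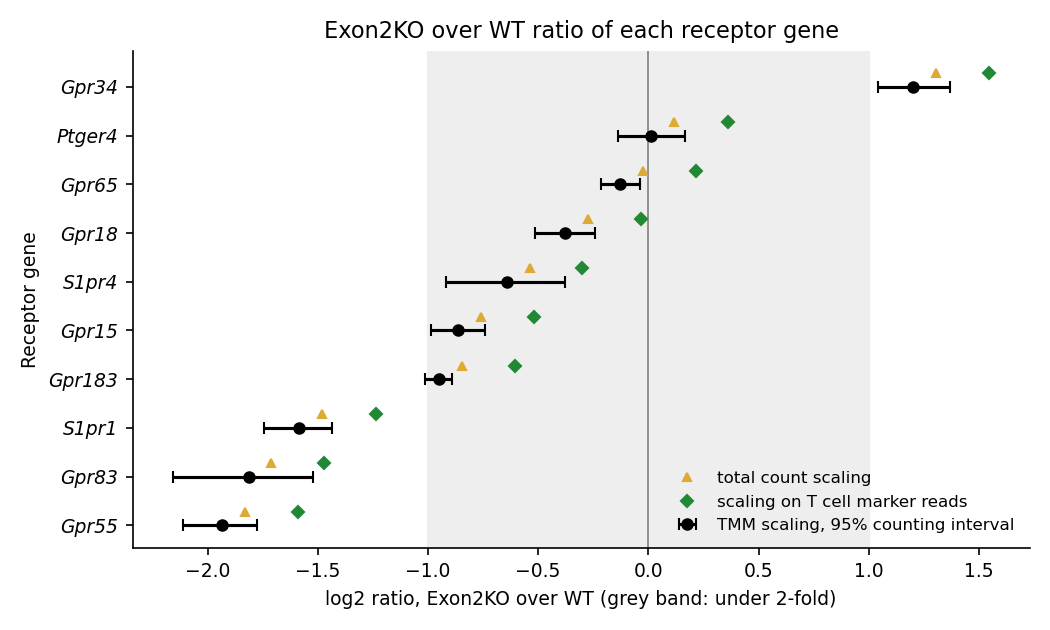
Log2 ratio of Exon2KO over WT (horizontal axis) for each receptor gene with TMM scaling (black, bars are 95% counting intervals), total count scaling (triangles) and scaling on T cell marker reads (diamonds). Gpr55, Gpr83 and S1pr1 lie left of the grey under-2-fold band and Gpr34 right of it under all 3 scalings drawn.

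The order of the levels also differed between the libraries. In WT it ran from Gpr183 through Gpr65, Gpr15, Gpr18, S1pr1, Gpr55, Gpr34, S1pr4 and Ptger4 to Gpr83, and 8 of the 9 neighbours in this order were told apart by their reads. The pair that was not, S1pr4 and Ptger4, had a level ratio of 1.14 (0.995 to 1.31). In Exon2KO the order was Gpr183, Gpr65, Gpr18, Gpr15, Gpr34, S1pr1, Ptger4, Gpr55, S1pr4 and Gpr83, and 6 of 9 neighbours were told apart. The 3 pairs that were not were Gpr18 over Gpr15 at 1.05-fold (0.954 to 1.16), Gpr15 over Gpr34 at 1.03-fold (0.943 to 1.13) and Ptger4 over Gpr55 at 1.11-fold (0.976 to 1.26). Gpr183, Gpr65 and Gpr83 kept their places. The highest level was 28.6 times the lowest in WT and 52.7 times in Exon2KO. Set against all tested genes by level per kilobase, S1pr1 stood at percentile 88.2 in WT and 74.8 in Exon2KO. Gpr55 stood at percentile 86.5 and 67.8, and Gpr34 at 79.2 and 89.1.

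Differences between 2 receptor genes in their log2 ratios do not depend on how the libraries are scaled, and all 45 pairs were compared. With intervals widened for 45 comparisons (Bonferroni, counting error only), 36 pairs differed and 9 did not. Gpr55, Gpr83 and S1pr1 formed pairs whose intervals held 0: Gpr83 exceeded Gpr55 by 0.11 (-0.47 to 0.69), S1pr1 exceeded Gpr55 by 0.35 (-0.02 to 0.73) and S1pr1 exceeded Gpr83 by 0.25 (-0.33 to 0.82). The same held for Gpr183 and Gpr15, at 0.09 (-0.14 to 0.32), while S1pr4 exceeded S1pr1 by 0.94 (0.43 to 1.44). Gpr34 differed from each of the 9 others, by 1.19 (0.83 to 1.56) over Ptger4 and by up to 3.15 (2.76 to 3.53) over Gpr55. Gpr18 and Gpr183, which lie 36.8 kb apart on chromosome 14, differed by 0.57 (0.33 to 0.82). Gpr65 was not told apart from Gpr18, at 0.25 (-0.01 to 0.52), or from Ptger4, at 0.14 (-0.15 to 0.43).

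**Figure D3:**
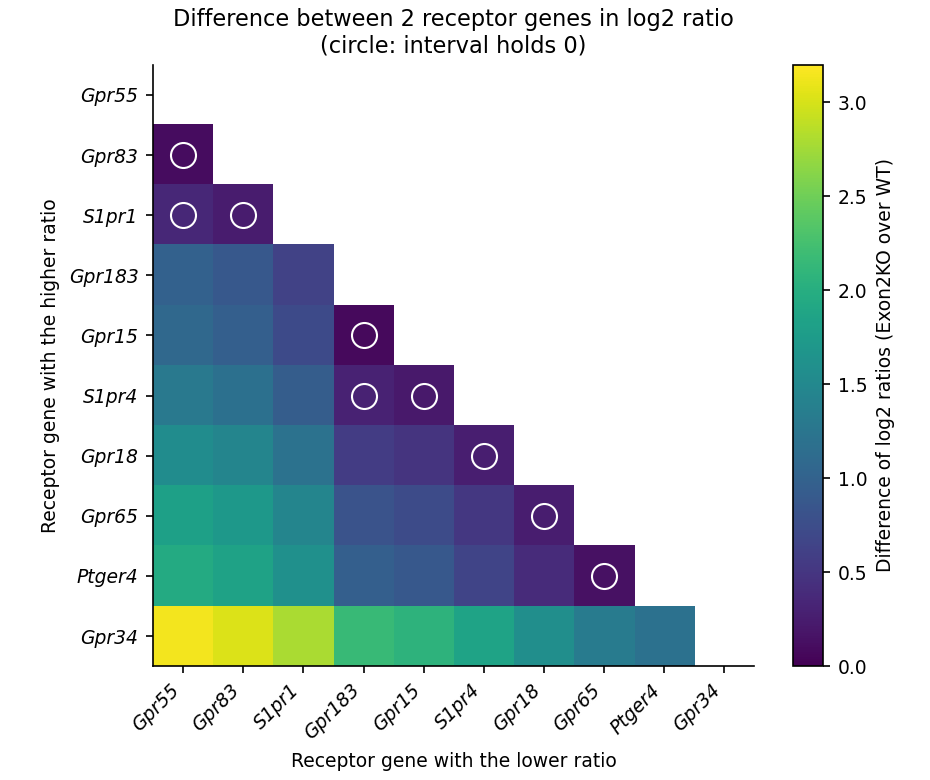
Difference between 2 receptor genes in log2 ratio (colour scale), for the gene with the higher ratio in rows and the lower in columns, with circles on the 9 pairs whose widened interval holds 0. The bottom row, Gpr34 against the others, holds the 3 widest differences.

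All 10 genes have the same start and end in GENCODE M21 as in the deposited table, and in 8 of them the whole coding sequence lies in 1 exon. Gpr83 has 4 coding exons and Ptger4 has 3. Gpr18 and Gpr183 lie on the opposite strand inside Ubac2, and Gpr34 inside Cask, in each case with 0 exon bases shared. Ubac2 had 1398 and 1224 reads, at -0.22 (-0.33 to -0.11), and Cask had 59 and 147, at 1.26 (0.85 to 1.75), called higher like Gpr34. Exons are shared by Gpr15 and Cpox over 204 bases, by Gpr55 and 4933407L21Rik over 71 and by Ptger4 and Ttc33 over 82, all on opposite strands. Gpr65 also shares 511 exon bases with Gm47566 and Ptger4 1015 with Gm15937, which both had 0 reads. The use of strand in counting is not given in the sources used here, so reads in those bases are uncertain. Cpox was at -0.20 (-0.34 to -0.06) with 923 and 817 reads, Ttc33 at 0.20 (0.02 to 0.38) with 470 and 551, and 4933407L21Rik at -1.51 (-2.32 to -0.91) with 71 and 24.

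The RefSeq promoter table (GRCm38.p6) held 8 of the 10 genes, and the entries of S1pr1 and Gpr34 were missing. The 250 bases before the annotated start are shown for the 2 genes with the lowest ratios and for Gpr183, the gene with the highest level, each 5′ to 3′ on the gene's strand. Capitals mark a match to a core motif of the aryl hydrocarbon receptor (GCGTG) or of Kruppel-like factors (CACCC), on either strand. Gpr55 is at chr1:85961056-85961305 (minus), Gpr83 at chr9:14859960-14860209 (plus) and Gpr183 at chr14:121965194-121965443 (minus).
Gpr55: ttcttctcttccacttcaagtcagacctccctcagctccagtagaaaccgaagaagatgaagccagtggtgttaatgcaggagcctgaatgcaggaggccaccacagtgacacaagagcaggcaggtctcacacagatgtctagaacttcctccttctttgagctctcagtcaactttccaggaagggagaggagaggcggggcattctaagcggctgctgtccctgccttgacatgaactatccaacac
Gpr83: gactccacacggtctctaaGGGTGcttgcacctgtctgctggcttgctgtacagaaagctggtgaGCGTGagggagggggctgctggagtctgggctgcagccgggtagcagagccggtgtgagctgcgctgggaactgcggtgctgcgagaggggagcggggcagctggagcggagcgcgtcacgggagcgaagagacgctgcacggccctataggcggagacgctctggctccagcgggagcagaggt
Gpr183: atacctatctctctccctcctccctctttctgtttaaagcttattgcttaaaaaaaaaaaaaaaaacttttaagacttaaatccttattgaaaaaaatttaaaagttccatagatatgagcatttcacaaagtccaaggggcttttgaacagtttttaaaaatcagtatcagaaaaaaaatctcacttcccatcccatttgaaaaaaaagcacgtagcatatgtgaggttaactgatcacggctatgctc

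Gpr83 has 1 match of each motif, and Gpr55 and Gpr183 have none. Over the 8 receptor windows, GCGTG was found in 2 and CACCC in 4, against 28.2% and 52.0% of all 32851 promoter windows of that length. The starts are those of RefSeq and can differ from the deposited ones. The Gpr15 window (chr16:58718873-58719122, minus) lies mostly inside the deposited gene, which ends at 58719070. Its CACCC match, 57 bases before the RefSeq start, falls within that gene. A forkhead motif (TGTTTAC) and a ROR half-site (AGGTCA) were found in 0 of the 8, against 3.17% and 14.02% of all windows. A match describes letters and not a bound site, and these motifs were chosen after the ratios were known.

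Among genes of T cell exit from tissue or retention in it, 2 of 5 were called lower and 0 higher, against 6.81% and 7.32% of all tested genes, with a median log2 ratio of -0.72. Klf2, a transcription factor that turns on S1pr1, had 2157 reads in WT and 1036 in Exon2KO, at -1.08 (-1.19 to -0.98), a call that scaling on total counts or on T cell marker reads ended, leaving 1 of 5. Itgae, the integrin CD103 that holds T cells at the epithelium by binding E-cadherin, was at -2.64 (-2.83 to -2.48). Ccr7, the lymph node chemokine receptor, had 13057 and 8082 reads at -0.72 (-0.76 to -0.68). Cd69, whose protein removes S1PR1 from the cell surface, had 10871 and 9170 reads at -0.27 (-0.31 to -0.23). The other S1P receptors and the enzymes and carriers of S1P gave 0 calls among 9 tested of 12, with a median of -0.21. In that list Sgpl1, the S1P lyase, was at -0.21 (-0.36 to -0.06) and Sphk2, an S1P-making kinase, at 0.51 (0.29 to 0.74). S1pr3 had 2 and 0 reads, and S1pr5 had 0 in both libraries.

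Genes that make, remove or bind the oxysterol and prostaglandin ligands were also counted. Of the 5 oxysterol enzymes 1 was tested, Ch25h, with 39 and 23 reads at -0.74 (-1.60 to -0.01), and it was not called. Of 15 prostaglandin receptors and enzymes 10 were tested, 1 was called higher and 3 lower, with a median of -0.26, where 7.32% and 6.81% of all tested genes were called. The called genes fell outside the rule for naming genes and are named because they are few. They are Hpgd, which degrades prostaglandins (4 and 42 reads), Ptgir (70 and 13), and the cyclooxygenases Ptgs1 (49 and 11) and Ptgs2 (27 and 5). The 2 with most reads, Ptges3 at -0.07 (-0.16 to 0.02) and the EP2 receptor gene Ptger2 at 0.45 (0.30 to 0.60), were not called.

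Of 47 other receptors for metabolites and lipids, 25 were tested, 3 were called higher and 6 lower, against 7.32% and 6.81% of all tested genes, with a median log2 ratio of -0.13. The 3 higher genes were F2r, a thrombin receptor, with 892 and 2302 reads at 1.34 (1.23 to 1.45), Cysltr1, a leukotriene receptor, with 70 and 174 reads at 1.26 (0.88 to 1.71), and Ffar2. Ffar2 encodes a receptor for short-chain fatty acids made by gut bacteria and had 40 and 163 reads, at 1.95 (1.49 to 2.54). Among the 6 lower genes, Cysltr2, a second leukotriene receptor, was at -1.12 (-1.29 to -0.95) with 898 and 421 reads and P2ry14 at -2.66 (-3.51 to -2.11) with 141 and 21. Scaling on T cell marker reads gave 6 higher and 4 lower in this list, without calls of Cysltr2 and Ltb4r2, where 13.01% and 4.42% of all tested genes were called. The other 4, Cnr2, Ltb4r2, Lpar2 and Gpbar1, had at most 26 reads in a library. The 2 with most reads were P2ry10 (5394 and 6447, at 0.23, 0.18 to 0.28) and Gpr132 (2645 and 2932, at 0.12, 0.05 to 0.20), neither called.

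Genes downstream of the receptors were counted in 3 lists, to be read against the 7.32% of all tested genes called higher and 6.81% lower, or 8.85% higher with total counts. The G protein subunits gave 0 calls among 17 tested (1 higher, Gnaz with 1 and 9 reads, with 3 of the other scalings), with a median of 0.13, and the largest counts were those of Gna13 at 0.10 (0.07 to 0.13) and the inhibitory subunit gene Gnai2 at -0.24 (-0.29 to -0.20). In the cAMP pathway 1 of 16 tested genes was called, Pde3b, a phosphodiesterase, at 1.38 (1.13 to 1.67). The cAMP-responsive gene Crem had 96193 and 107475 reads, at 0.13 (0.12 to 0.15), and Prkar1a was at 0.02 (-0.01 to 0.05). Of 13 tested genes that shut receptor signals off, 2 were called lower and 0 higher (2 higher with total counts, Arrb1 and Grk3). Rgs2, which speeds G protein shut-off, had 69699 reads in WT and 17672 in Exon2KO at -2.01 (-2.03 to -1.98), and Rgs16 had 809 and 239 at -1.78 (-2.00 to -1.58). Rgs1, a relative of both, was at 0.29 (0.27 to 0.31) with 32374 and 40275 reads.

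**Figure D4:**
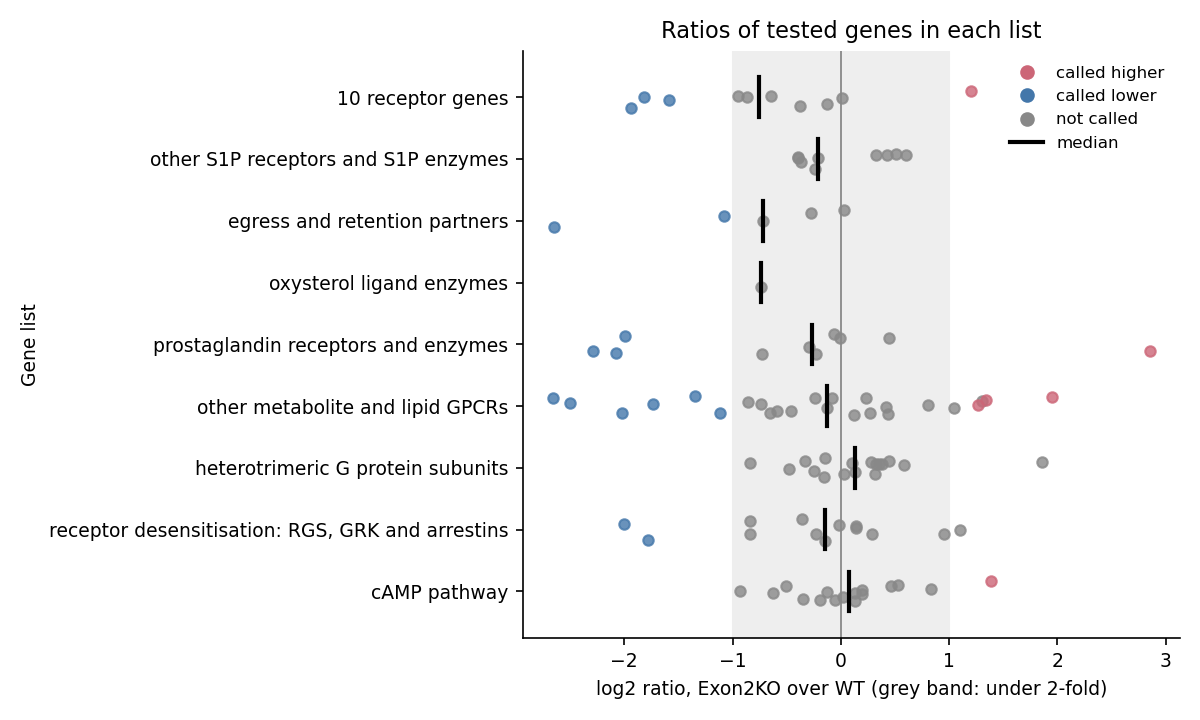
Log2 ratio of Exon2KO over WT (horizontal axis) of every tested gene in the 10 receptor genes and in each of 8 lists of related genes, with black bars at the medians. Called genes lie outside the grey under-2-fold band, and the receptor genes and the exit and retention genes have the lowest medians of the lists with more than 1 tested gene.

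Markers of the labelled cell type were present, with 12 of 12 T cell genes tested and a summed level of 7565 CPM in WT and 5950 in Exon2KO. The Treg list gave 17397 and 19091 CPM, with 2 of its 12 genes called higher and 6 lower, against 7.32% and 6.81% of all tested genes, and a median log2 ratio of -0.75. Its sum rests most on Ctla4 (5055 CPM in WT and 8273 in Exon2KO), and its lowest ratio was that of Ikzf2, the Treg transcription factor Helios, at -4.29 (-4.44 to -4.16). Markers of other cells moved in different directions, and their calls are to be read against the same shares. Macrophage and dendritic cell genes summed to 94.7 and 76.8 CPM with Itgax at 0 in both libraries, and 1 of the 11 tested was called, Zbtb46, lower at -1.98 (-2.27 to -1.72). Without Zbtb46 the sum was 59.8 CPM in WT and 68.1 in Exon2KO, with Lyz2 at 0.33 (0.11 to 0.54) and Cd68 at 0.50 (0.22 to 0.80), but 7 of the 11 tested genes, Zbtb46 included, had a ratio below 0. Among them, Csf1r was at -1.02 (-2.92 to 0.22), C1qc at -0.45 (-1.25 to 0.27) and Cd14 at -0.10 (-0.48 to 0.28). CD8 T and NK cell genes summed to 99.2 and 65.7 CPM, of which Nkg7, not called, made up 80.3 and 53.7. Of the 7 tested in that list, 2 were called lower (Prf1 at -1.64 and Cd8a at -1.67). Ncr1, with 0 and 10 reads, was the 1 called higher. B and plasma cell genes summed to 7956 CPM in WT and 7399 in Exon2KO. Jchain made up 7649 and 7115 of this, and the sums without it were 306 and 284 CPM. Of the 9 tested in that list, 1 was called higher and 3 lower. Stromal and endothelial genes summed to 76.1 and 70.8 CPM, of which Pecam1 made up 58.4 and 52.2. Of the 8 tested there, 2 were called higher (Lum, 6 and 20 reads, and Cdh5, 0 and 15) and 0 lower. Epithelial genes went from 97.6 to 384 CPM, with 9 of 13 tested called higher, 0 lower and 3 with a ratio below 0. Among those 3, Epcam had 782 and 609 reads at -0.39 (-0.54 to -0.23), and Muc2 was at -0.93 (-1.82 to -0.20). Gamma-delta T cell genes went from 13.2 to 81.7 CPM, or from 5.41 to 17.02 without Tcrg-C1. In the gamma-delta list 5 of 7 were called higher and 1 lower (Trdv4, 15 and 1 reads), with Trdc at 14 and 13 reads. Gpr34, at 27.8 CPM in WT and 64.1 in Exon2KO, is also known from macrophages, mast cells and innate lymphoid cells. The mast cell genes Mcpt1, Mcpt2, Mcpt4, Tpsb2 and Fcer1a had 0 reads in both libraries and Cpa3 had 1 and 0, while the whole mast cell and eosinophil list had 24.3 and 3.75 CPM, mainly through Ccr3 (339 and 38 reads). Innate lymphoid genes summed to 33.8 and 24.0 CPM, with 3 of 5 called higher (Klrb1f, Zbtb16 and Ncr1) and 2 lower (Kit and Hpgds). Hpgds made up most of the WT sum, at 20.1 CPM in WT and 5.63 in Exon2KO. Kit went from 9.49 to 3.32 CPM and Klrb1f from 3.44 to 12.4. The part of these cells in the ratios of the receptor genes was not tested.

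In the authors' deposited table, the log2 fold changes of S1pr1, Gpr83 and Gpr55 were -1.59, -1.83 and -1.94, with adjusted p-values of 0.00739, 0.00226 and 0.000472. Over the 22447 genes with an adjusted p-value in that table, 2.21% were lower and 2.37% higher with a value below 0.05. How those p-values were obtained with 1 library per group is not given in the sources used here, so they are not read as a test over replicates. Gpr34 had 1.20 there with an adjusted p-value of 0.0804, and the other 6 genes had adjusted p-values of 0.227 or more. The exact test of edgeR with an assumed relative spread between samples (BCV) of 0.2 left the 3 lower calls and 0 higher, against 3.09% lower and 3.33% higher over all tested genes, and with a BCV of 0.4 none of the 10 was called. A scaling on T cell marker reads shifted the median of all tested genes to 0.35 and turned Gpr65 to 0.22, while the same 4 genes were called.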

How the data were processed

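Reads per gene were deposited by the authors for both libraries, with FPKM values (used only as an alternative level), a scaled count signal (not used), and log2 fold changes with p-values and adjusted p-values, which are quoted as the authors' deposited values. Gene lengths are those of the deposited table. Per the submitters' processing notes, the build was mm10 and the tools include HISAT2 2.0.5, StringTie 1.3.3b, featureCounts 1.5.0-p3 and DESeq2 1.16.1; which of them gave the fold changes and p-values, and the use of strand, is not given in the sources used here. A Qiagen kit for RNA and an NEBNext Ultra kit for libraries were used, per the labels' protocols.

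From the counts, TMM factors (0.964 for WT and 1.04 for Exon2KO) were computed with edgeR 4.0.16 in R 4.3.3. For log2 ratios the prior count was 2; intervals come from the Clopper-Pearson bounds on the Exon2KO share of a gene's reads. The 17363 genes whose reads summed to 10 or more entered a 2-sided exact binomial test against the TMM-scaled library sizes, and p-values were adjusted by Benjamini-Hochberg over all of them (scipy 1.17.1, statsmodels 0.14.6). The code was tested on simulated data. Levels have exact Poisson intervals, shares Wilson intervals, and pairs Wald intervals of the log odds ratio. As no molecular identifiers are described, reads may repeat molecules, and intervals and limits cover counting error only. Alternatives were other scalings, prior counts, read minimums, fold thresholds, assumed spreads and protein-coding genes only.

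The 10 genes, the lists of related genes (8) and of cell type markers (10) were chosen with earlier results of these data known. Named genes are the 10 receptor genes, Foxp3, genes overlapping a receptor gene, and from each related list any called gene reaching 100 reads in 1 library, and the 2 with most reads; 2 older symbols in the lists (Adrbk1 and Adrbk2) match no row. Other genes named, among them markers, neighbours, genes with few reads and calls that change with scaling, were chosen after their values were seen. Some genes of these lists are not reported here.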

Additional observations from a re-analysis of the deposited data

How the results depend on the processing

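No paired analysis was possible because WT and Exon2KO have a single library each. No library could be omitted, and there are no residual degrees of freedom for the quasi-likelihood test of edgeR or for DESeq2. Scaling by DESeq2 size factors, total counts, upper quartile, TMM without immunoglobulin, mitochondrial and haemoglobin genes, or T cell marker reads kept the same 4 calls (Gpr55, Gpr83 and S1pr1 lower, Gpr34 higher), as did prior counts of 0.5 and 5, no read minimum, a minimum of 50 reads and protein-coding genes only. Scaling on T cell marker reads moved the median of the 10 genes from -0.75 to -0.41 and turned Gpr65 from -0.13 to 0.22. It moved the median of all genes tested from 0.0043 to 0.35 and gave 13.01% called higher and 4.42% lower. Total counts moved that median to 0.11, and gave 8.85% higher and 5.86% lower, with intervals below 0 for 7 of the 10 genes and across 0 for Gpr65 and Ptger4.

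An assumed BCV of 0.2 in edgeR's exact test ended the call of Gpr34 (1.20), leaving 0 higher and 3 lower among the 10 genes and 3.33% higher and 3.09% lower over all genes. A BCV of 0.4 ended all 4 calls, those of Gpr34 (1.20), S1pr1 (-1.58), Gpr83 (-1.81) and Gpr55 (-1.94), leaving 0 higher and 0 lower; over all genes it left 86 higher and 78 lower. A fold threshold of 4 also left 0 and 0, as all 4 ratios lie below it, and 2.87% higher and 2.35% lower over all genes. A threshold of 1.5 added S1pr4 (-0.64), Gpr15 (-0.86) and Gpr183 (-0.95), giving 6 lower, where 10.87% of all genes were lower and 10.78% higher. For the lists of related genes, the scalings were tried after the data were seen. Higher calls among G protein subunits went from 0 to 1 with total counts, upper quartile and T cell marker reads. Among genes that shut signals off they went from 0 to 2 with total counts, 1 with upper quartile and 2 with T cell marker reads. Upper quartile scaling gave 8.23% higher and 6.14% lower over all genes. Lower calls among exit and retention genes went from 2 to 1 with total counts and with T cell marker reads. With T cell marker reads, the higher calls were 6 among other metabolite and lipid receptors and 2 in the cAMP pathway. The FPKM values deposited by the authors lay within the counting interval of the level per kilobase for 20 of 20 values. Counting error is widest for Gpr83, and 1 library per group limits every ratio.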

Other observations

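The nearest tested protein-coding gene on each side of each receptor gene, chosen after the ratios were known and leaving out overlapping genes, gave 20 neighbours, of which 2 were called higher, 2 lower and 16 not, against 7.32% higher and 6.81% lower over all tested genes. Gpr18 and Gpr183 are among the 20, as neighbours of each other. The 2 lower genes were Izumo1r and Itm2c. Izumo1r, which encodes folate receptor 4 of Treg cells, begins 15.03 kb from Gpr83; its counts were 3713 (WT) and 1702 (Exon2KO), for a log2 ratio of -1.15 (95% interval -1.23 to -1.07). Itm2c, 29.6 kb from Gpr55, had 7783 and 3009 reads, at -1.40 (-1.46 to -1.34). The 2 higher genes, Maoa (14 and 141 reads) and Dab2 (8 and 28 reads), lie 2979 kb from Gpr34 and 1056 kb from Ptger4. S1pr4 has a neighbour within 3 kb on each side, Ncln at 0.05 (-0.12 to 0.23) and Gna15 at 0.03 (-0.07 to 0.13), against -0.64 for S1pr4 itself. Cldnd1, 8.84 kb from Gpr15, was at -0.67 (-0.72 to -0.62) with 7685 and 4927 reads.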
